A study of Homo sapiens with 20 samples.

Results

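Epithelial-mesenchymal transition (EMT) genes were examined in the established pancreatic cancer line SW1990, of human origin, after 4 treatments with traditional Chinese medicine. The 10 genes were chosen by name, with earlier results of these data known. They were the epithelial markers CDH1 and EPCAM, the mesenchymal markers CDH2, VIM and FN1, and the transcription factors ZEB1, ZEB2, SNAI1, SNAI2 and TWIST1. They are 10 of the 60656 rows of a count table, and all 10 passed the filter on low counts, as did 24790 rows in all. The 4 treatments had 5 libraries each. Their labels read clearing Heat and removing Dampness (heat-clearing below), strengthening spleen and regulating qi-flowing (spleen-strengthening), eliminating heat by nourishing yin (yin-nourishing), and activating blood and removing stasis (blood-activating). The series title places the work in a mouse model. The labels used here give the cell line as the source of every sample, name no herb, dose, duration or host strain, and mark no group as untreated, so each comparison is between treatments. They do not say whether replicates are separate mice or cultures, so p-values measure only the spread between these samples, which may be technical. RNA was depleted of ribosomal RNA and sequenced from strand-keeping libraries.

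In EMT, epithelial cells loosen their contacts and take on a migratory, mesenchymal form. E-cadherin, the product of CDH1, holds neighbouring epithelial cells together, and the ZEB, SNAI and TWIST factors can repress it by binding E-box motifs in its promoter. The miR-200 family and miR-205 act against the ZEB factors by pairing with their messenger RNAs, and ZEB1 in turn represses miR-200 genes. Pancreatic cancer cells often carry epithelial and mesenchymal markers together.

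Because this opposition runs through sequence, the microRNAs that target ZEB1 and ZEB2 are shown first. The mature sequences are from RefSeq on GRCh38.p14, written 5′ to 3′ with the seed, bases 2 to 8, in capitals. The first 3 share one seed, the next 2 share another, and miR-205 has its own.
hsa-miR-200b-3p: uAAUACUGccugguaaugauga
hsa-miR-200c-3p: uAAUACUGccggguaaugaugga
hsa-miR-429: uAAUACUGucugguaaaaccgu
hsa-miR-141-3p: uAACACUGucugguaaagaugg
hsa-miR-200a-3p: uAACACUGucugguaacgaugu
hsa-miR-205-5p: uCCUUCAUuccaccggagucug
The target sites below come from the longest annotated 3′ UTR of each factor in GENCODE 29 (hg38), with the bases complementary to the seed in capitals. Both sites of the miR-200b, miR-200c and miR-429 type are the first of their kind in the UTR, and the last line is the miR-205 site of ZEB1.
ZEB1, first site: guuuuaucuuauCAGUAUUa
ZEB2, first site: acuaccauacauCAGUAUUu
ZEB1, miR-205 type: augugguaacauAUGAAGGa

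The search covered the sense strand of each UTR for the complement of each of the 3 seeds, and these matches are different strings of 7 bases. CAGUAUU occurred 6 times in the ZEB1 UTR of 2549 bases and 5 times in the ZEB2 UTR of 5370 bases. Of 2381 other UTRs between 0.8 and 1.2 times the length of the ZEB1 UTR, 26.0% held it at least once, and of 1117 UTRs of like length to that of ZEB2, 45.7% did. CAGUGUU, the match to miR-141 and miR-200a, occurred 3 times in ZEB1 and 4 times in ZEB2, and 29.5% and 51.7% of those UTRs held it. AUGAAGG, the match to miR-205, occurred 1 time in ZEB1 and 0 times in ZEB2, and 19.1% and 34.9% of the UTRs of like length held it. A match is a run of letters and not a measured site, and mature microRNAs were not measured in these libraries.

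Host transcripts were measured for miR-205, miR-200c and miR-141, and none is given here for miR-200b, miR-200a and miR-429. MIR205HG, from which miR-205 is made, ranged from 59.4 to 109 CPM over the 20 libraries. CPM is the count per M counts after TMM normalisation, where M stands for mega. MIR200CHG, the host of miR-200c and miR-141, ranged from 0 to 2.03 CPM. It averaged 0.998 ± 0.586 CPM in heat-clearing, 0.457 ± 0.343 CPM in spleen-strengthening, 0.413 ± 0.221 CPM in yin-nourishing and 1.22 ± 0.586 CPM in blood-activating libraries (SD, n = 5 each). In the RN7SK-high libraries it had 0.864 to 2.03 CPM and in the other 15 it had 0 to 0.917 CPM. These are levels of the host RNA and do not give the level of the microRNA.

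Total counts per library were 81.7 to 135 M, so 3 counts, taken as the limit of detection, correspond to 0.0221 to 0.0368 CPM. In 5 libraries the structural RNA RN7SK took 5.25 to 7.38% of counts, against 1.57 to 3.02% in the other 15. These RN7SK-high libraries were heat-clearing 01 and 02 and blood-activating 01, 08 and 09, so they fall unevenly over the treatments. Summed over 6 pancreatic duct markers, among them KRT7, KRT8, KRT18, KRT19 and MUC1, the RN7SK-high libraries had 2240 to 2690 CPM and the other 15 had 1610 to 2250 CPM, and none of the 6 was at 0 in any library. The sum over 7 fibroblast markers was 22.5 to 67.1 CPM in the RN7SK-high libraries and 17.4 to 51.5 CPM in the others, of which COL1A1 gave 13.3 to 54.4 CPM, and COL1A2, DCN and PDGFRB were each at 0 in some libraries. The sum over 3 smooth muscle markers was 3.94 to 5.46 CPM in the RN7SK-high libraries and 0.717 to 2.92 CPM in the others. Sums over 5 endothelial and 6 myeloid markers reached 24.2 and 85.4 CPM, with CNN1 (a smooth muscle marker), KDR, ITGAM and AIF1 at 0 in most libraries and CD68 giving most of the myeloid sum. Pancreatic acinar genes summed to 0.315 to 746 CPM. In bulk RNA, fewer cells of a type and less RNA per cell cannot be told apart.

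The libraries held epithelial and mesenchymal markers together. The part of other cells in these levels was not tested. Per kb of the longest coding transcript in GENCODE 29, VIM had the highest level at 374 CPM per kb on average over 20 libraries, followed by CDH1 at 64.4, EPCAM at 56.4, SNAI2 at 33.8 and FN1 at 21.1 CPM per kb. The ZEB factors were lower, with ZEB2 at 2.73 and ZEB1 at 1.79 CPM per kb. SNAI1 at 0.391, CDH2 at 0.308 and TWIST1 at 0.229 CPM per kb were lowest. The ranges over libraries of VIM (223 to 539 CPM per kb) and CDH1 (46.5 to 95.4) did not overlap, while CDH1 overlapped EPCAM (43.7 to 73.6), EPCAM overlapped SNAI2 (19.4 to 61.4), and SNAI2 overlapped FN1 (7.62 to 39.5). ZEB2 (1.43 to 5.98) overlapped ZEB1 (1.1 to 2.32), and the lowest 3 overlapped one another. Over the union of all annotated exons, VIM averaged 155 CPM per kb, CDH1 51, and the ZEB pair changed places at 1.29 for ZEB1 and 1.04 for ZEB2, so the order of these factors depends on the length used. Among the SNAI and TWIST factors, SNAI2 stood far above SNAI1 and TWIST1 in level per kb.

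**Figure D1:**
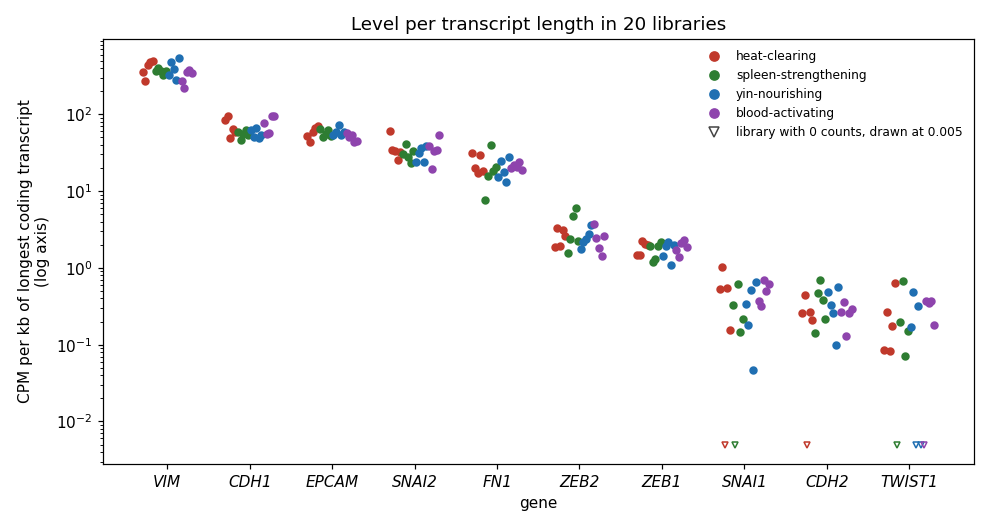
Level of each gene in CPM per kb of its longest coding transcript (log axis), with 1 point per library coloured by treatment and open triangles for libraries with 0 counts. VIM averaged 374 CPM per kb and TWIST1 0.229.

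No member passed the test between treatments. The edgeR quasi-likelihood F-test with Benjamini-Hochberg adjustment called 0 of the 10 genes for any difference among the 4 treatments, where 0% of all 24790 rows were called. It called 0 of 10 in heat-clearing minus spleen-strengthening libraries (0.00807% of all rows called), and 0 of 10 in heat-clearing minus yin-nourishing (0%), heat-clearing minus blood-activating (0%), spleen-strengthening minus yin-nourishing (0%), spleen-strengthening minus blood-activating (0%) and yin-nourishing minus blood-activating libraries (0%). DESeq2 also called 0 of 10 in all 7 comparisons, but it called more of all rows than edgeR. Of 24748 rows it called 1233 among the 4 treatments. It called 1933 in spleen-strengthening minus blood-activating, 1055 in yin-nourishing minus blood-activating and 10 to 67 in the remaining pairs. Limma voom with quality weights called 1 of 10, CDH1, in the test among the 4 treatments, in spleen-strengthening minus blood-activating and in yin-nourishing minus blood-activating libraries, where it called 8.47%, 19.8% and 16.8% of all rows, and called 0 of 10 in the remaining pairs.

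At an unadjusted p under 0.05, edgeR had 1 of 10 members, CDH1, among the 4 treatments, against 15.4% of all rows. CDH1 was also the 1 member in spleen-strengthening minus blood-activating libraries, against 20.5% of rows, and in yin-nourishing minus blood-activating libraries, against 18.2% of rows. VIM was the 1 member in heat-clearing minus blood-activating libraries, against 1.86% of rows. There were 0 members in heat-clearing minus spleen-strengthening (11.5% of rows), heat-clearing minus yin-nourishing (10.3%) and spleen-strengthening minus yin-nourishing libraries (4.72%). In the comparisons that named CDH1, the members' share was below that of all rows, and the VIM result is a count of 1.

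**Figure D2:**
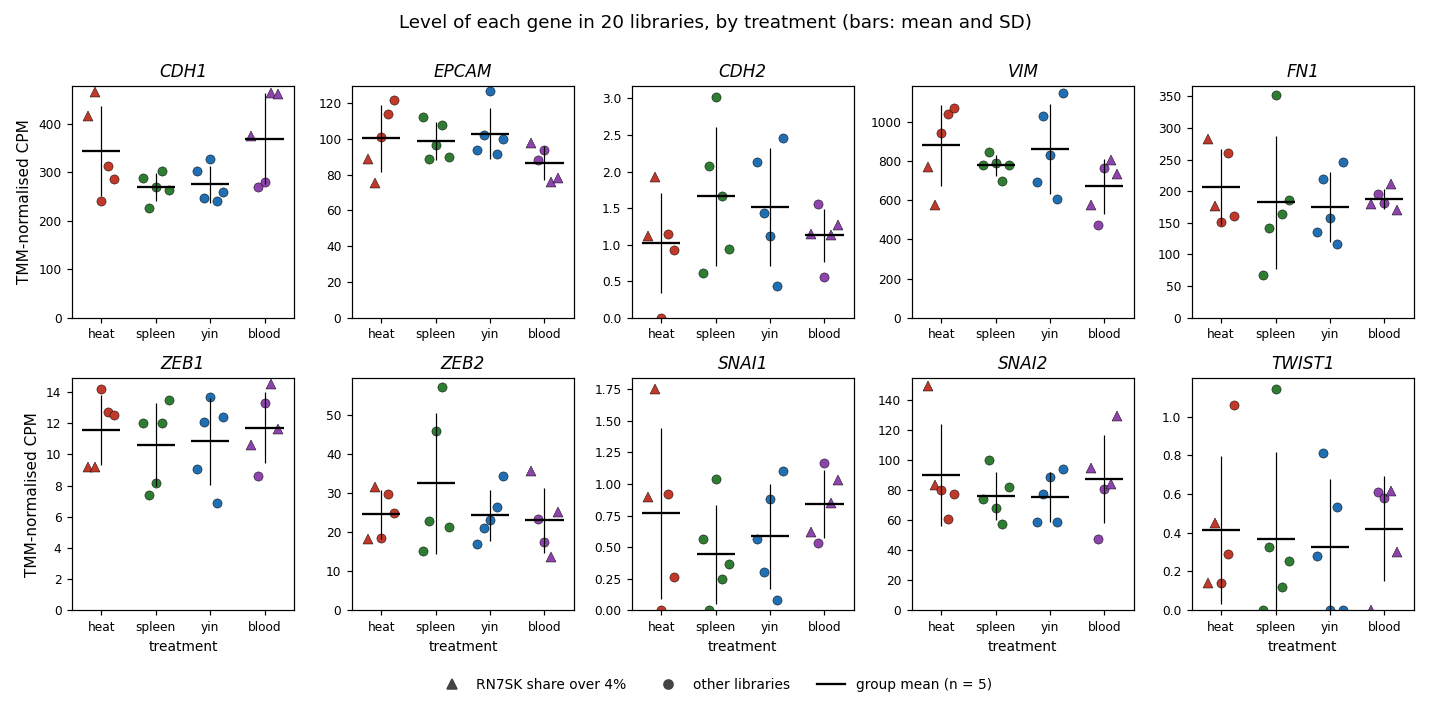
TMM-normalised CPM of each gene (vertical axes, from 0) in the 5 libraries of each treatment, with horizontal bars for the mean, vertical bars for the SD, and triangles for libraries with an RN7SK share over 4%. For CDH1 the 5 triangles lie at 374 to 466 CPM, above every circle.

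CDH1 encodes E-cadherin, the calcium-dependent adhesion molecule of epithelial junctions (ENSG00000039068.18, hg38 chromosome 16 from 68737225 to 68835548, plus strand). In heat-clearing libraries 01, 02, 03, 07 and 09 it had 415, 466, 241, 313 and 287 CPM. In spleen-strengthening libraries 02, 05, 06, 07 and 08 it had 289, 227, 269, 303 and 264 CPM, and in yin-nourishing libraries 01, 04, 05, 07 and 10 it had 303, 247, 328, 240 and 260 CPM. In blood-activating libraries 01, 04, 06, 08 and 09 it had 374, 269, 280, 463 and 462 CPM. Every treatment overlapped every other, and the high values in the heat-clearing and blood-activating groups were those of the RN7SK-high libraries.

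CDH1 averaged 270 ± 28.8 CPM in spleen-strengthening and 369 ± 94.1 CPM in blood-activating libraries (SD, n = 5 each), a log2 fold change of -0.45 (SE 0.174, edgeR adjusted p = 0.143). It averaged 276 ± 38.3 CPM in yin-nourishing libraries, a log2 fold change of -0.42 against blood-activating libraries (SE 0.174, edgeR adjusted p = 0.194). Heat-clearing libraries averaged 345 ± 93.3 CPM, with a log2 fold change of 0.35 against spleen-strengthening libraries (SE 0.173, edgeR adjusted p = 0.453). With limma voom the spleen-strengthening minus blood-activating value was -0.59 (SE 0.15, adjusted p = 0.0111).

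Split by RN7SK share, CDH1 had 374 to 466 CPM in the 5 RN7SK-high libraries and 227 to 328 CPM in the other 15, with no overlap. It was 1 of 10 members whose 2 ranges did not overlap, against 12.6% of all rows. Because the 2 ranges are apart over all libraries, the same order inside a treatment follows and adds no second result. Heat-clearing libraries had 415 and 466 CPM when RN7SK-high and 241 to 313 CPM in the other 3. Blood-activating libraries had 374 to 463 CPM when RN7SK-high and 269 and 280 CPM in the other 2. Without the 5 RN7SK-high libraries, the edgeR log2 fold change of CDH1 in spleen-strengthening minus blood-activating libraries was -0.013 (SE 0.134, adjusted p = 1), and with a term for these libraries it was -0.022 (SE 0.119, adjusted p = 1). Across the 20 libraries, Pearson's r between CDH1 on the log2 scale and the RN7SK share was 0.89, and across the other 15 it was 0.46. Total counts of the RN7SK-high libraries, 89.99 to 109.4 M, lay within the range of the others, and no label names a preparation batch. The part of the RN7SK-high libraries' other differences in CDH1 was not tested.

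**Figure D3:**
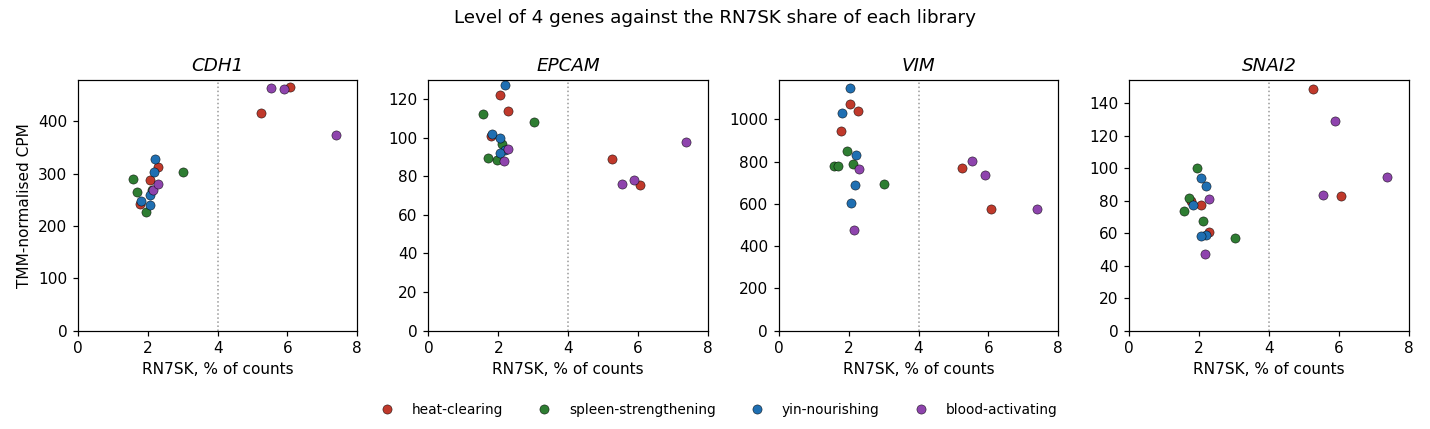
TMM-normalised CPM of CDH1, EPCAM, VIM and SNAI2 (vertical axes, from 0) against the percentage of each library's counts assigned to RN7SK, with 1 point per library coloured by treatment and a dotted line at 4%. CDH1 lies at 374 to 466 CPM right of the line and 227 to 328 CPM left of it, while EPCAM lies at 75.4 to 97.6 CPM right of it and 88.1 to 127 CPM left of it.

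EPCAM encodes an epithelial surface glycoprotein that mediates cell contact (ENSG00000119888.10, chromosome 2 from 47345158 to 47387601, plus strand). It had 88.9, 75.4, 101, 114 and 122 CPM in heat-clearing libraries, 112, 88.5, 96.4, 108 and 89.6 CPM in spleen-strengthening libraries, 93.6, 102, 127, 91.8 and 100 CPM in yin-nourishing libraries, and 97.6, 88.1, 93.9, 75.7 and 78.1 CPM in blood-activating libraries. All treatments overlapped, and the lowest values were in RN7SK-high libraries. The smallest p of any pair was for yin-nourishing minus blood-activating libraries, at 103 ± 14.1 CPM and 86.7 ± 9.58 CPM (SD, n = 5 each), with a log2 fold change of 0.25 (SE 0.126, edgeR adjusted p = 0.307).

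The pair of epithelial markers did not keep 1 ratio. CDH1 counts were 3.83 to 6.19 times EPCAM counts in the RN7SK-high libraries and 2.36 to 3.24 times in the other 15. Pearson's r between them on the log2 scale was -0.45 over 20 libraries and 0.65 over the other 15, where the points share library and depth. The sign of this relation therefore differs with and without the 5 RN7SK-high libraries.

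VIM encodes vimentin, the intermediate filament of mesenchymal cells (ENSG00000026025.15, chromosome 10 from 17228259 to 17237593, plus strand). In heat-clearing libraries 01, 02, 03, 07 and 09 it had 769, 575, 945, 1040 and 1070 CPM. Spleen-strengthening libraries had 781, 848, 789, 696 and 778 CPM, yin-nourishing libraries had 691, 1030, 833, 604 and 1150 CPM, and blood-activating libraries 01, 04, 06, 08 and 09 had 577, 476, 766, 804 and 734 CPM. The spleen-strengthening libraries lay close together, the others were spread widely, and all treatments overlapped.

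VIM averaged 880 ± 207 CPM in heat-clearing and 671 ± 139 CPM in blood-activating libraries (SD, n = 5 each), a log2 fold change of 0.39 (SE 0.181, edgeR adjusted p = 1). Yin-nourishing libraries averaged 862 ± 229 CPM, with a log2 fold change of 0.36 against blood-activating libraries (SE 0.181, edgeR adjusted p = 0.298). Among libraries that were not RN7SK-high, the 3 heat-clearing ones had 945 to 1070 CPM, against 696 to 848 CPM in the 5 spleen-strengthening ones and 476 and 766 CPM in the 2 blood-activating ones. The 5 yin-nourishing libraries had 604 to 1150 CPM, which overlaps the heat-clearing range. The share of all rows with ranges apart between treatments in this small subset was not computed. The edgeR log2 fold change in that subset was 0.72 for heat-clearing minus blood-activating libraries (SE 0.227, adjusted p = 1) and 0.39 for heat-clearing minus spleen-strengthening libraries (SE 0.176, adjusted p = 1), so neither passed. With all 20 libraries and a term for the RN7SK-high ones, the heat-clearing minus blood-activating value was 0.32 (SE 0.187, edgeR adjusted p = 1). Fibroblasts also express VIM and FN1. Of the 7 fibroblast markers, COL1A1 had 13.3 to 54.4 CPM, COL3A1 and LUM reached 4.98 and 5.25 CPM, PDGFRA reached 2.28 CPM, and COL1A2, DCN and PDGFRB ran from 0 to 3.65, 1.95 and 0.683 CPM. Their part in the VIM and FN1 levels was not tested.

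The ratio of VIM to CDH1 counts, a simple measure of the balance between the markers, was 1.23 to 3.92 in heat-clearing libraries (median 3.32), 2.3 to 3.73 in spleen-strengthening libraries (median 2.93), 2.28 to 4.43 in yin-nourishing libraries (median 2.54) and 1.54 to 2.74 in blood-activating libraries (median 1.74). It was 1.23 to 1.85 in the RN7SK-high libraries and 1.77 to 4.43 in the other 15. The treatments overlapped on this ratio, and its low end was held by the RN7SK-high libraries and by blood-activating library 04. Pearson's r between VIM and CDH1 on the log2 scale was -0.28 over 20 libraries and -0.012 over the other 15, where the points share library and depth.

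FN1 encodes fibronectin, a matrix protein laid down by mesenchymal cells (ENSG00000115414.18, chromosome 2 from 215360440 to 215436172, minus strand). It had 283, 177, 152, 260 and 161 CPM in heat-clearing libraries, 67.9, 142, 352, 164 and 186 CPM in spleen-strengthening libraries, 135, 220, 157, 116 and 246 CPM in yin-nourishing libraries, and 180, 195, 181, 211 and 170 CPM in blood-activating libraries. The lowest and the highest of the 20 values were both in the spleen-strengthening group, and the blood-activating libraries lay closest together. Group means were 207 ± 60.4 CPM in heat-clearing, 182 ± 105 CPM in spleen-strengthening, 175 ± 55.9 CPM in yin-nourishing and 187 ± 16.2 CPM in blood-activating libraries (SD, n = 5 each). The pair with the smallest p was heat-clearing minus yin-nourishing libraries, with a log2 fold change of 0.24 (SE 0.308, edgeR adjusted p = 0.861). Without heat-clearing 01 it was 0.10, and without yin-nourishing 10 it was 0.39.

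CDH2 encodes N-cadherin, the cadherin that can replace E-cadherin in EMT (ENSG00000170558.8, chromosome 18 from 27950966 to 28177446, minus strand). It was barely present, with 0 to 1.92 CPM in heat-clearing, 0.608 to 3.02 CPM in spleen-strengthening, 0.429 to 2.46 CPM in yin-nourishing and 0.56 to 1.55 CPM in blood-activating libraries. Heat-clearing library 03 had 0 counts, which allows up to 3 counts. The pair with the smallest p was heat-clearing minus spleen-strengthening libraries, at a log2 fold change of -0.70 (SE 0.701, edgeR adjusted p = 0.775). Other cadherin genes were measured in the same libraries. CDH3, the P-cadherin gene, ranged from 35.2 to 90.9 CPM and CDH11, a mesenchymal cadherin gene, from 128 to 315 CPM. CDH11 averaged 215 ± 65.8 CPM in yin-nourishing and 150 ± 22 CPM in blood-activating libraries (SD, n = 5 each; log2 fold change 0.51, SE 0.176, edgeR adjusted p = 0.146).

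ZEB1 and ZEB2 encode zinc finger and homeobox repressors of CDH1. ZEB1 (ENSG00000148516.21, chromosome 10 from 31318495 to 31529814, plus strand) had 9.19, 9.18, 14.2, 12.7 and 12.5 CPM in heat-clearing libraries, 12, 7.41, 8.17, 12 and 13.5 CPM in spleen-strengthening libraries, 9.08, 12.1, 13.7, 6.88 and 12.4 CPM in yin-nourishing libraries, and 10.6, 8.6, 13.3, 14.5 and 11.6 CPM in blood-activating libraries. All groups overlapped and their means lay within 10.6 to 11.7 CPM. The pair with the smallest p was spleen-strengthening minus blood-activating libraries, with a log2 fold change of -0.14 (SE 0.211, edgeR adjusted p = 0.795). Its approximate 95% interval was -0.56 to 0.27.

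ZEB2 (ENSG00000169554.19, chromosome 2 from 144364364 to 144524583, minus strand) had 18.2, 31.7, 18.5, 29.8 and 24.9 CPM in heat-clearing libraries, 15.2, 22.8, 46, 57.3 and 21.4 CPM in spleen-strengthening libraries, 17.1, 21, 23.1, 26.4 and 34.4 CPM in yin-nourishing libraries, and 35.6, 23.3, 17.6, 13.7 and 25.1 CPM in blood-activating libraries. Spleen-strengthening libraries 06 and 07 held the highest values, while the other 3 of that group lay within the range of the remaining treatments. ZEB2 averaged 32.6 ± 18.1 CPM in spleen-strengthening and 23.1 ± 8.33 CPM in blood-activating libraries (SD, n = 5 each), a log2 fold change of 0.50 (SE 0.317, edgeR adjusted p = 0.415). Without spleen-strengthening 07 it was 0.18. Pearson's r between ZEB1 and ZEB2 on the log2 scale was -0.23 over the 20 libraries. ZEB2 counts were 0.945 to 5.64 times those of ZEB1.

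SNAI2 encodes SLUG, a zinc finger repressor of CDH1 (ENSG00000019549.11, chromosome 8 from 48917604 to 48921740, minus strand). It had 149, 83.1, 79.7, 60.9 and 77.4 CPM in heat-clearing libraries, 73.9, 100, 67.6, 57.2 and 81.6 CPM in spleen-strengthening libraries, 58.6, 77.3, 88.8, 58.4 and 93.7 CPM in yin-nourishing libraries, and 94.7, 47.1, 80.8, 83.7 and 129 CPM in blood-activating libraries. The highest 2 values, 149 and 129 CPM, were in RN7SK-high libraries, and all treatments overlapped. SNAI2 averaged 90 ± 34.1 CPM in heat-clearing and 75.3 ± 16.5 CPM in yin-nourishing libraries (SD, n = 5 each), a log2 fold change of 0.26 (SE 0.241, edgeR adjusted p = 0.778). Without the RN7SK-high libraries it was -0.047 (SE 0.207, adjusted p = 1), so its direction rests on them. Pearson's r of SNAI2 with CDH1 on the log2 scale was 0.46 over 20 libraries and -0.27 over the other 15, and with VIM it was 0.26 and 0.68.

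SNAI1 and TWIST1 had few counts, and some libraries had none. SNAI1 encodes SNAIL, a zinc finger repressor of CDH1 (ENSG00000124216.3, chromosome 20 from 49982999 to 49988886, plus strand). It averaged 0.767 ± 0.678 CPM in heat-clearing, 0.443 ± 0.392 CPM in spleen-strengthening, 0.585 ± 0.415 CPM in yin-nourishing and 0.841 ± 0.268 CPM in blood-activating libraries (SD, n = 5 each). It had 0 counts in heat-clearing 03 and spleen-strengthening 05 and at most 167 counts in any library. TWIST1, a basic helix-loop-helix factor gene (ENSG00000122691.12, chromosome 7 from 19020991 to 19117672, minus strand), averaged 0.416 ± 0.382, 0.368 ± 0.451, 0.325 ± 0.351 and 0.421 ± 0.27 CPM in the same order of treatments. It had 0 counts in spleen-strengthening 02, yin-nourishing 05 and 10 and blood-activating 01, and at most 144 counts in any library. The smallest p of any pair for SNAI1 was in spleen-strengthening minus blood-activating libraries (log2 fold change -0.92, SE 0.966, edgeR adjusted p = 0.68), and for TWIST1 in yin-nourishing minus blood-activating libraries (-0.37, SE 1.27, adjusted p = 0.933).

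**Figure D4:**
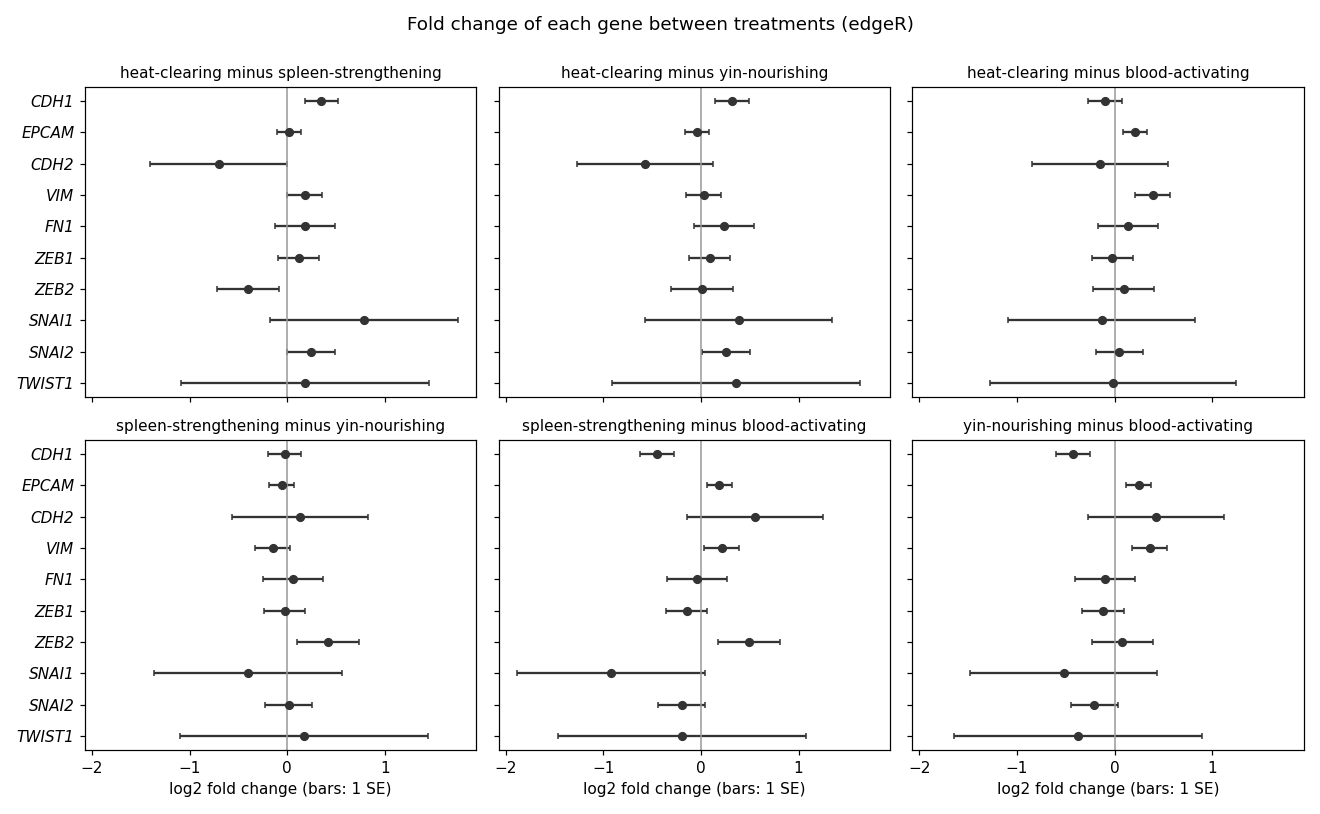
Log2 fold change of each gene (horizontal axes, points) with 1 SE (bars) in the 6 pairs of treatments, from the edgeR fit of all 20 libraries. CDH1 lies furthest from 0 relative to its SE in spleen-strengthening minus blood-activating libraries (-0.45, SE 0.174), and the bars of SNAI1 and TWIST1 are the widest.

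CDH2, SNAI1 and TWIST1 had within-group SDs on the log2 scale of 1.52, 1.84 and 2.08, where rows of like level had medians of 0.732, 1.22 and 1.49. The other members differed in how much they varied inside a treatment. The same measure was 0.529 for FN1, 0.548 for ZEB2 and 0.419 for SNAI2, against medians of 0.214, 0.257 and 0.207. CDH1 had 0.299 against a median of 0.202, and VIM 0.317 against 0.23. EPCAM (0.201 against 0.201) and ZEB1 (0.347 against 0.326) varied about as much as rows of like level.

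Among the members, 6 share exonic bases with an annotated gene on the opposite strand, and the strand setting of the counting is not given in the sources used here, so reads of the pair may not be separated. VIM shared 641 bases with VIM-AS1 and 619 bases with AL133415.1. ZEB2 shared 1299 bases with ZEB2-AS1, 19 with RF01987 and 4 with RF01984. The overlaps were 366 bases for ZEB1 and ZEB1-AS1 and 347 bases for CDH1 and AC099314.1. They were 141 bases for TWIST1 and AC003986.2, and 136 bases for CDH2 and AC110015.1. Over the 20 libraries VIM-AS1 had 1.81 to 5.1 CPM, ZEB2-AS1 0 to 1.32 CPM and ZEB1-AS1 9.84 to 18.1 CPM. Levels of the other overlapping genes are not given here. VIM-AS1 had a log2 fold change of -0.58 in heat-clearing minus yin-nourishing libraries (SE 0.246, edgeR adjusted p = 0.469).

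For each of the 8 members with a mean log2 CPM of 0 or more, the 3 rows with the most similar pattern over 20 libraries were taken from 11056 rows. SNAI1 and TWIST1 lie below that level. For CDH1 they were B3GNT3 (Pearson's r = 0.978), LAMA5 (0.962) and HSPG2 (0.96), and over the other 15 libraries these values were 0.875, 0.836 and 0.904. For VIM they were MSN (0.862), which encodes the cytoskeletal linker moesin, ANTXR2 (0.854) and PMP22 (0.846), and for SNAI2 they were LGALS1 (0.883), which encodes galectin-1, OCIAD2 (0.85) and CEP170P1 (0.84). ZEB2 was most like CELF2 (0.793), SFRP1 (0.784) and PTENP1 (0.767), ZEB1 like SMG1P7 (0.79), APPL1 (0.733) and AC002524.1 (0.724), EPCAM like ASXL1 (0.845), ARHGAP26 (0.831) and INAFM2 (0.826), and FN1 like IPO4 (0.738), CXorf38 (0.719) and TESK1 (0.705). CDH2 was most like SNX27 (0.886), ARMCX3 (0.879) and LIN37 (0.835), but Spearman's rho was only 0.439, 0.513 and 0.368 there, and the library with 0 CDH2 counts is among the points. All points share library and depth.

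Genes that act with the members were followed in 8 lists, and 0 of the tested genes in any list passed in any of the 7 edgeR comparisons. Among 20 epithelial adhesion and surface genes, 8 had an unadjusted p under 0.05 in spleen-strengthening minus blood-activating libraries, all 8 lower, where 20.5% of all rows had such a p, and the median log2 fold change of the list was -0.31, against -0.04 over all rows. In heat-clearing minus spleen-strengthening libraries 6 of the 20 had an unadjusted p under 0.05, all higher, where 11.5% of all rows did. The list median was 0.30, against 0.02 over all rows. For yin-nourishing minus blood-activating libraries it was 9 of the 20, 7 lower and 2 higher, where 18.2% of all rows had such a p. The list median there was -0.23, against -0.09 over all rows. CLDN4, which encodes a tight junction claudin, had a log2 fold change of -0.68 in yin-nourishing minus blood-activating libraries (SE 0.201, edgeR adjusted p = 0.141), and LAD1, which encodes a basement membrane anchoring protein, -0.68 in spleen-strengthening minus blood-activating libraries (SE 0.202, adjusted p = 0.0935). In this list 6 genes had ranges apart between the RN7SK-high and the other libraries, against 12.6% of all rows, and all 6 were higher in the RN7SK-high ones, among them CLDN4, CLDN7, SPINT1, MUC1 and LAD1. CLDN4, for instance, had 138 to 177 CPM in the RN7SK-high libraries and 74.4 to 99.6 CPM in the others. The part of these libraries in the list values was not tested.

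Among 15 regulators of the epithelial state, 5 were lower and 1 was higher at an unadjusted p under 0.05 in spleen-strengthening minus blood-activating libraries, where 20.5% of all rows had such a p. The list median was -0.35, against -0.04 over all rows. KLF4, ELF3 and OVOL1, genes of epithelial transcription factors, had the smallest p of the list. ELF3 had a log2 fold change of -0.95 in yin-nourishing minus blood-activating libraries (SE 0.3, edgeR adjusted p = 0.143), and OVOL1 -0.76 in spleen-strengthening minus blood-activating libraries (SE 0.237, adjusted p = 0.0977). KLF4 averaged 15.3 ± 2.46 CPM in spleen-strengthening and 27.3 ± 8.21 CPM in blood-activating libraries (SD, n = 5 each; log2 fold change -0.84, SE 0.224, edgeR adjusted p = 0.0911), with 21.4 to 37.2 CPM in the RN7SK-high libraries and 12.6 to 24.8 CPM in the others. ESRP1, which encodes an epithelial splicing factor, had 279 to 317 CPM in the RN7SK-high libraries and 336 to 443 CPM in the other 15, while ESRP2 was higher in the RN7SK-high ones. These 2 were the list's only genes whose ranges were apart, against 12.6% of all rows. Among 10 catenins and cadherin partners, the medians lay between -0.07 and 0.04 in the 6 pairs. JUP, the plakoglobin gene, had 756 to 961 CPM in the RN7SK-high libraries and 473 to 713 CPM in the others. CTNNA1, the alpha-catenin gene, had 261 to 297 CPM and 187 to 239 CPM, and CTNND1 was lower in the RN7SK-high libraries. With ranges apart, 2 of the 10 were higher there and 1 lower, against 12.6% of all rows.

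Among 30 mesenchymal and invasion genes, 6 were higher and 0 lower at an unadjusted p under 0.05 in heat-clearing minus spleen-strengthening libraries, and 6 were lower and 0 higher in spleen-strengthening minus blood-activating libraries, where 11.5% and 20.5% of all rows had such a p. The list medians of 0.09 and -0.02 stood against 0.02 and -0.04 over all rows. PLAU, the urokinase gene, averaged 65.3 ± 38.2 CPM in heat-clearing and 26.2 ± 2.67 CPM in spleen-strengthening libraries (SD, n = 5 each; log2 fold change 1.32, SE 0.341, edgeR adjusted p = 0.323). It had 70.7 to 122 CPM in the RN7SK-high libraries and 23.3 to 43.5 CPM in the others, without overlap. ITGA3, S100A4 and TPM2 of this list were likewise higher in every RN7SK-high library than in any other. In this list 5 of 30 genes had ranges apart, all higher in the RN7SK-high libraries, against 12.6% of all rows. LOXL2, the gene of a collagen-crosslinking oxidase, had a log2 fold change of -1.09 in spleen-strengthening minus blood-activating libraries (SE 0.316, edgeR adjusted p = 0.0933), with 16 to 39.3 CPM in the RN7SK-high libraries and 7.68 to 26.1 CPM in the others.

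Of 24 other EMT transcription factors and corepressors, 22 could be tested, and TWIST2 and GSC did not pass the filter on low counts. In spleen-strengthening minus blood-activating libraries 3 were higher and 3 lower at an unadjusted p under 0.05, against 20.5% of all rows. CTBP1, the gene of a corepressor that ZEB1 recruits, averaged 92.5 ± 7.17 CPM in yin-nourishing and 64.1 ± 12.7 CPM in blood-activating libraries (SD, n = 5 each; log2 fold change 0.53, SE 0.141, edgeR adjusted p = 0.141), with 51.2 to 68.2 CPM in the RN7SK-high libraries and 74.3 to 100 CPM in the others. ID1, whose product blocks E-box binding factors of the basic helix-loop-helix kind, had 42.7 to 67.1 CPM in the RN7SK-high libraries and 15.8 to 40.5 CPM in the others. TCF12, an E-box binding factor gene, had 75.6 to 101 CPM and 102 to 142 CPM. Of 22 tested, 1 (ID1) was higher and 2 (TCF12 and CTBP1) lower in the RN7SK-high libraries with ranges apart, against 12.6% of all rows.

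The TGF-beta pathway, a main inducer of EMT, had 20 tested genes, of which 4 had an unadjusted p under 0.05 in spleen-strengthening minus blood-activating libraries, 2 in each direction, against 20.5% of all rows. SMAD7, the gene of the inhibitory SMAD, averaged 3.46 ± 1.13 CPM in spleen-strengthening and 7.03 ± 1.31 CPM in blood-activating libraries (SD, n = 5 each). SMAD7 had a log2 fold change of -1.02 (SE 0.236, edgeR adjusted p = 0.0835), and ranged from 1.94 to 4.54 CPM and from 5.25 to 8.46 CPM in these groups. It had 6.1 to 8.46 CPM in the RN7SK-high libraries and 1.94 to 7.69 CPM in the others. TGIF1, the gene of a SMAD corepressor, averaged 21.8 ± 1.9 CPM in heat-clearing and 28.9 ± 2.23 CPM in yin-nourishing libraries (SD, n = 5 each). TGIF1 had a log2 fold change of -0.41 (SE 0.107, edgeR adjusted p = 0.456), and ranged from 19.8 to 24.1 CPM and from 27 to 32.4 CPM in these groups. Both genes were named for their small p, and the share of all rows with ranges apart in these pairs was not computed. TGFB1, the ligand gene, had 49.2 to 72.8 CPM in the RN7SK-high libraries and 23.5 to 40.7 CPM in the others. Of the 20 genes, TGFB1 alone was higher and TGFBR2 alone lower there with ranges apart, against 12.6% of all rows.

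FN1 acts through integrins, and of 9 fibronectin receptor and crosslinker genes, 5 had an unadjusted p under 0.05 in spleen-strengthening minus blood-activating libraries, 2 higher and 3 lower, against 20.5% of all rows, and the list median was -0.42, against -0.04 over all rows. ITGA5, the gene of the alpha subunit of the main fibronectin receptor, averaged 37.9 ± 8.26 CPM in spleen-strengthening and 88.4 ± 36.9 CPM in blood-activating libraries (SD, n = 5 each; log2 fold change -1.22, SE 0.298, edgeR adjusted p = 0.0835), whereas ITGB1, the gene of its beta subunit, had 0.50 in yin-nourishing minus blood-activating libraries (SE 0.154, adjusted p = 0.141). ITGA5 had 65.8 to 143 CPM in the RN7SK-high libraries and 23.8 to 84.7 CPM in the others. ITGB1 had 777 to 902 CPM in the RN7SK-high libraries and 1080 to 1550 CPM in the others. SDC4, the gene of the coreceptor syndecan-4, had 499 to 571 CPM and 282 to 408 CPM. With ranges apart, 2 of the 9 (SDC4 and TGM2) were higher and 1 (ITGB1) lower in RN7SK-high libraries, against 12.6% of all rows. Of the antisense partners, 3 of the 7 listed matched a row by symbol, and ZEB1-AS1 had a log2 fold change of 0.35 in spleen-strengthening minus blood-activating libraries (SE 0.154, edgeR adjusted p = 0.194).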

How the data were processed

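The authors deposited counts, 1 whole number for each gene in each library, without normalisation. HISAT2, StringTie and the build hg38 are named in the submitters' processing notes, with no versions. Which annotation and strand setting were used, and whether mouse reads were separated, is not given in the sources used here. All value columns were used. Libraries were grouped by the labelled treatment.

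All 20 libraries were fitted together with edgeR 4.0.16 in R 4.3.3 (TMM, default filter with a minimum count of 10, robust quasi-likelihood F-tests, Benjamini-Hochberg adjustment over all 24790 tested rows, threshold 0.05). The test was also run on simulated counts with changes in the spleen-strengthening group only, and the outcome is not given here. That simulation held no RN7SK-high subset, so it does not cover the uneven spread of these libraries over treatments. SE is the fold change divided by the root of F. The 95% intervals are 1.96 SE on either side, a normal quantile, so they can be narrower than the F-test implies. Floors of 3 counts cover counting error only. Correlations used log2(CPM + 0.5) for members and a prior count of 2 for similar rows. RN7SK-high libraries have an RN7SK share over 4%. DESeq2 1.42.0 and limma 3.58.1 (voom with quality weights), other normalisations and filters, the title letter, a replicate block, RN7SK-high libraries left out or given a term, single pairs and leaving out each library were alternatives. Members, lists and the RN7SK split were chosen with earlier results of these data known. Named genes are the members, up to 3 genes per list with the smallest unadjusted p among the 4 treatments, and up to 3 most similar rows. Other list genes, the cadherins and host transcripts were named after their values were seen. Some genes that the rule names are not reported here. Any 2 libraries of a group differed by more than sampling noise (chi-square per degree of freedom at least 80.7). UTR sequences and positions are from GENCODE 29, microRNAs from RefSeq.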

Additional observations from a re-analysis of the deposited data

Results flagged for a closer look

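Over 40 sets of 5 values (10 genes in 4 treatments), 2 had a library whose gap to the nearest other value, divided by the range, was above 0.71, and chance gives about 1 in 20 such sets. SNAI2 had 149 CPM in heat-clearing library 01, an RN7SK-high library, while the other 4 had 60.9 to 83.1 CPM (gap over range 0.748). Without that library the log2 fold change of SNAI2 in heat-clearing minus yin-nourishing libraries was 0.00053. TWIST1 had 1.14 CPM in spleen-strengthening library 06, while the other 4 had 0 to 0.325 CPM (gap over range 0.716). The same library had the highest FN1 level, 352 CPM, and the highest CDH2 level, 3.02 CPM.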

How the results depend on the processing

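Across 216 alternative counts of members past the threshold, 213 were 0 as in the reported fit, and the other 3 were the limma voom counts of 1 (CDH1) among the 4 treatments, in spleen-strengthening minus blood-activating and in yin-nourishing minus blood-activating libraries. Leaving out each of the 20 libraries in turn gave 0 members in every comparison. The CDH1 log2 fold change in spleen-strengthening minus blood-activating libraries then ran from -0.56 (without blood-activating 04, adjusted p = 0.0501) to -0.37, and with limma voom it was -0.59. Of 308 alternative fold changes, 3 reversed: SNAI2 in heat-clearing minus yin-nourishing libraries was -0.047 without the RN7SK-high libraries and -0.053 with a term for them, and TWIST1 in yin-nourishing minus blood-activating libraries was 1.8 (SE 1.77) under the replicate block, against -0.37; the cause of the last was not tested.

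Where a fit calls almost no row, a count of 0 members was nearly fixed in advance. Counts over all rows stayed near the reported 0 or 2 in 160 of 216 alternatives and moved in 56, some of them by few rows. For spleen-strengthening minus blood-activating libraries they were 0 as reported, 1933 with DESeq2, 4910 with limma voom, 2002 without blood-activating 04 and 311 without heat-clearing 03. For yin-nourishing minus blood-activating libraries they were 0, 1055 with DESeq2, 4172 with limma voom and 361 without blood-activating 04, and among the 4 treatments 0, 1233, 2099 and, without heat-clearing 03, 378. For heat-clearing minus spleen-strengthening libraries they were 2, 0 or 1 under other normalisations and filters, 67 with DESeq2, 3 with limma voom and 0 to 2 without 1 library, and DESeq2 gave 32, 10 and 30 in the remaining pairs. Libraries with the same replicate number had low correlations (12 pairs, r from -0.0453 to 0.17). Only heat-clearing 01 with blood-activating 01, both RN7SK-high, was above 0.1. Pairs with different numbers are not given here, so these values cannot exclude a weak pairing. With the replicate block 0 members passed. The log2 fold change of FN1 in heat-clearing minus yin-nourishing libraries was then 0.90 (SE 0.282, edgeR adjusted p = 0.865), against 0.24. Leaving out each library gave 0.10 to 0.39 for FN1 in that pair and 0.18 to 0.69 for ZEB2 in spleen-strengthening minus blood-activating libraries. Between scalings, the median log2 fold change of all rows stayed within -0.0857 and 0.0466.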
